A study of Homo sapiens with 16 samples.

Results

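TRPM2 is a calcium-permeable cation channel that opens when ADP-ribose binds its cytosolic domain, for instance during oxidative stress. SH-SY5Y is a human neuroblastoma line of the sympathetic lineage, whose cells are mostly adrenergic, that is, neuron-like cells that express the transcription factors and enzymes of catecholamine-producing neurons. Neuroblastoma cultures can also hold a flatter, matrix-rich mesenchymal state, which carries markers that fibroblasts share. The question here was how gene families other than those of the cell cycle and of p53 differed between untreated clones labelled TRPM2 KO and scrambled control (Scr) clones.

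Poly(A) RNA of 8 of the 16 libraries of the study was compared, 4 labelled TRPM2 KO against 4 labelled Scr, all grown for 24 h in regular medium. Clones KO11 and KO28 each gave 2 KO-labelled libraries, as did Scr13 and Scr16 for the controls. KO clones had received Cas9 with a guide to TRPM2, and Scr clones Cas9 with a scrambled guide. All 4 clones had also received the same donor vector, which carries GFP and puromycin resistance between TRPM2 homology arms, had been selected in puromycin and had been grown from single cells. In the KO clones the start of the coding sequence was to be removed and the remainder shifted out of frame. Each clone is a single isolate, and the replicates of a clone share it, so p-values measure the spread between these libraries rather than between independent knockouts. Values are normalized CPM, reads per 1e6 reads, scaled by the authors to an effective library size. Between 13611339 and 25086085 reads per library fell on genes, with a median of 16817739, and a floor of 3 reads corresponded to between 0.118 and 0.219 normalized CPM, which covers counting error only. Values are given in the order KO11 replicates 1 and 2, KO28 replicates 1 and 2 for the KO-labelled libraries, and Scr13 replicates 1 and 2, Scr16 replicates 1 and 2 for the Scr libraries.

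Markers of the labelled cell type were checked first. Of 9 adrenergic markers, 8 passed the filter on low values, and their summed level was 4776, 5107, 5305 and 5663 normalized CPM in the KO-labelled libraries and 4947, 4882, 4563 and 5493 in the Scr libraries. The groups overlapped in this sum. By the test described below 2 of the 8 were called higher, GATA3 among them, and 1 lower. DBH, HAND2, PHOX2A and GATA3 were abundant in all 8 libraries, whereas TH, which encodes tyrosine hydroxylase, was at 0.783 normalized CPM or less. Myeloid markers were at or near 0 reads, with a summed level of 0.118 normalized CPM or less, and Schwann and glial, epithelial and endothelial marker sums were at most 5.36 normalized CPM. In contrast, the 6 fibroblast markers COL1A1, COL1A2, COL3A1, DCN, LUM and PDGFRB summed to 302, 224, 324 and 297 normalized CPM in the KO-labelled libraries and to 238, 79.3, 130.2 and 108 in the Scr libraries. By mean, COL3A1 had the highest normalized CPM of them in the KO-labelled libraries and PDGFRB in the Scr libraries, none was at 0 in any library, and 4 (COL1A1, COL3A1, DCN and LUM) were called higher and none lower. Mesenchymal neuroblastoma markers, 6 of which were tested, summed to 751, 704, 903 and 854 against 743, 414, 500.2 and 550.03 normalized CPM. By mean, VIM was the highest of these in the KO-labelled libraries and TWIST1 in the Scr libraries, 3 were called higher and 1 lower, and Scr13 replicate 1 stood among the KO-labelled libraries. In bulk RNA, more cells of a kind and more RNA per cell cannot be told apart.

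The libraries did not all group by clone. Over 11383 genes with a mean of at least 5 normalized CPM, the SD of the log2 difference between libraries was 0.233 for Scr13 replicate 1 against Scr16 replicate 2, smaller than the 0.251 within Scr13 and the 0.311 within Scr16. For the KO clones it was 0.228 within KO11 and 0.340 within KO28, and KO28 replicate 1 was closer to both KO11 replicates (0.315 and 0.296) than to KO28 replicate 2. Between KO-labelled and Scr libraries the SD lay between 0.324 and 0.437. Scr13 replicate 1 and Scr16 replicate 2 had, for example, 273 and 270.4 normalized CPM of IGF2, where Scr13 replicate 2 and Scr16 replicate 1 had 139 and 133.6. The cause was not tested. These pairs are called the controls high in IGF2 and the controls low in IGF2 below, and, for lists whose count is given and is at least 3, the count is also given without each pair where its total over both directions moved by more than 1.5 times.

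Reads of the targeted gene went against the label. According to the study's methods the clones were authenticated by RT-PCR and Western blotting, which are not analysed here. The guide printed here shows where the edit was aimed. It matches the + strand of TRPM2 at chr21:44353718-44353737 of GRCh38, 20 bases within the coding sequence, beginning 17 bases after its first base, in exon 1 or 2 of 5 annotated transcripts. The last 3 letters, in capitals, are the genomic bases that follow the guide, where Cas9 needs its PAM.
TRPM2 guide: gaggaaagctggctcggagcAGG
TRPM2 (ENSG00000142185, chromosome 21, 44350163 to 44443081) had 1.93, 2.23, 1.41 and 2.19 normalized CPM in the KO-labelled libraries and 0.118, 0.115, 0 and 0 in the Scr libraries. Every KO-labelled library was thus above every Scr library, and the latter were at or under 3 reads. There were 123 reads against 5 over 4 libraries each, a 29.8-fold ratio with a 95% counting interval of 12.4 to 93.3. The log2 fold change, on the log2(normalized CPM + 1) scale used throughout, was 1.47, and a two-sided exact permutation test of this gene, for which no filter on low values was used, gave p = 0.0286, the smallest that 4 against 4 libraries allow. TRPM2-AS overlaps the gene on the opposite strand, and gene counts do not show whether the deleted stretch was read. Directions are therefore given for KO-labelled libraries, and no difference is ascribed to loss of the channel. Of 29 genes within 500 kb of TRPM2, 16 were tested, and their log2 fold changes lay between -0.30 and 0.44 with a lowest limma adjusted p of 0.430.

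Of the 14364 genes tested with limma's moderated test, 695 (4.84%) passed an adjusted p of 0.05 (Benjamini-Hochberg). This background is the share against which each family below can be read, with 2.30% called higher and 2.54% called lower. The changes were mostly moderate, with a median size of 0.78 on the log2 scale among the genes called, and 188 genes changed by less than 0.5. At least 2-fold changes were called for 254 genes (1.77%), 135 of them higher (0.940%) and 119 lower (0.828%), and at least 4-fold changes for 24 higher and 28 lower. Groups did not overlap for 631 of the 695, against 1334 (9.29%) of all genes tested. A total of 416 calls (59.9%), 200 higher and 216 lower, held without each single library in turn. Without the controls high in IGF2 417 genes were called, and without those low in IGF2 452. A further limit lies in the filter of 1 normalized CPM in 4 libraries, since 74 genes passed it through a single group and 55 of these were called. Such a gene had to differ to be tested, so its values are given as a description, and counts of calls in a list include such members. Among the genes described below these were SERTM2, SEMA3A, S100A11, MECOM, PRTFDC1, THBS2, DCN, SERPINE2, HOXD10, POU3F3, FABP5, PARP14 and all genes given with values in the next paragraph, as well as TRPM2 itself. The plot of all genes tested shows the size of the changes against abundance. Signed numbers after a gene, and amounts after rose by or fell by, are log2 fold changes.

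**Figure D1:**
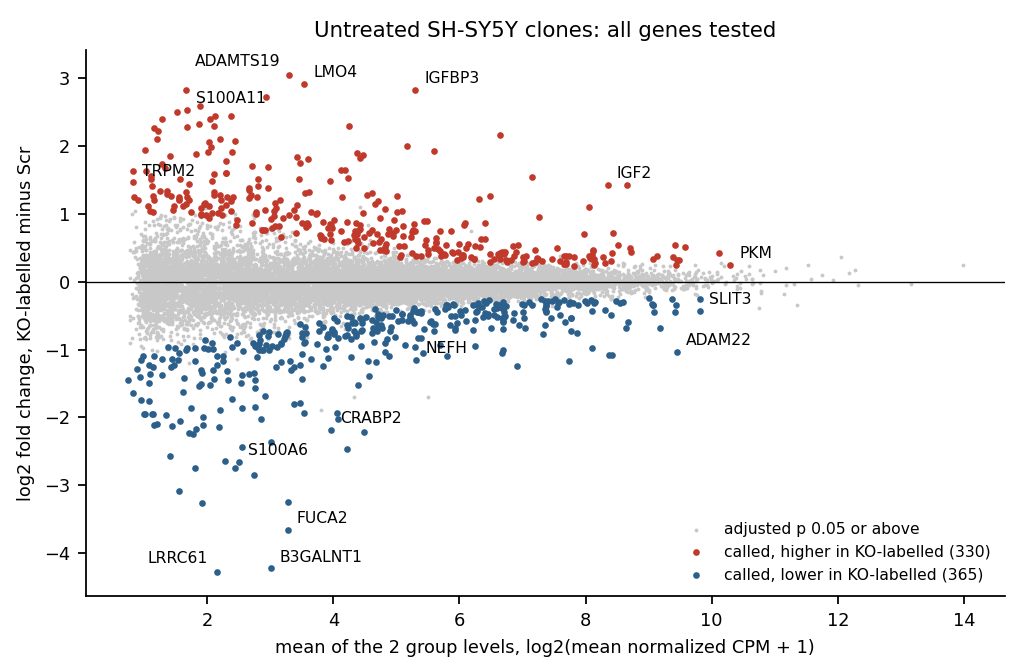
Log2 fold change of each of the 14364 genes tested (y axis, KO-labelled minus Scr) against the mean of both group levels (x axis, each as log2(mean normalized CPM + 1)), with genes called higher in red, genes called lower in blue and all others in grey. The labelled falls of LRRC61 and B3GALNT1 exceed 4 on the log2 scale, and the 254 genes called with at least 2-fold changes lie above 1 or below -1.

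A few genes were read in all 4 libraries of 1 group and had few or no reads in the other. LRRC61 (ENSG00000127399, chromosome 7, 150322639 to 150338150), which encodes a leucine-rich repeat protein, had 0 reads in each KO-labelled library and 13.9, 19.8, 25.4 and 16.0 normalized CPM in the Scr libraries. Against the floor of 3 reads per library it was at least 85.8-fold lower. ZBED10P, which lies inside LRRC61 on the same strand, fell with it (0.220, 0, 0 and 0 against 3.94, 9.79, 4.97 and 3.75 normalized CPM, with 4 reads in KO11 replicate 1), and their reads could be shared. GTSF1 (ENSG00000170627, chromosome 12, 54455950 to 54473602), a factor of the piRNA pathway in germ cells, had 0 reads in the KO-labelled libraries and 9.88, 5.64, 6.20 and 8.75 normalized CPM in the Scr libraries, at least 34.8-fold lower. LBX2, a homeobox gene, PNPLA4, a lipase of the patatin family, and MAP10, a microtubule-associated protein gene, were at 0 reads in all KO-labelled libraries as well, at least 13.9-fold, 13.5-fold and 9.80-fold lower. LBX2-AS1 overlaps LBX2 on the opposite strand. ANPEP, which encodes the cell-surface peptidase CD13, had 4 reads against 278 (57.4-fold, counting interval 22.2 to 212), and C14orf39, a meiotic gene, 6 against 273 (37.6-fold, 17.1 to 103). In the other direction, CAPN6, an X-linked member of the calpain family, had 4.85, 4.04, 4.56 and 2.33 normalized CPM in the KO-labelled libraries and 0 reads in the Scr libraries, at least 21.4-fold higher. PRRG1, which encodes a transmembrane Gla protein, had 0 reads in the Scr libraries as well (at least 11.5-fold higher). NRIP1, a corepressor of nuclear receptors, had 296 reads against 4 (89.5-fold, 34.6 to 331), and AMER2, a Wnt pathway adaptor, 257 against 5 (62.2-fold, 26.3 to 193). These genes were chosen for their low group after their values were seen, other than LRRC61, ZBED10P, GTSF1, CAPN6 and NRIP1.

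Among further falls, those of a glycosyltransferase and a glycosidase came first. B3GALNT1 (ENSG00000169255, chromosome 3, 161083883 to 161105384), the glycosyltransferase that builds globoside, had 1.10, 0.602, 2.01 and 0 against 29.3, 31.6, 33.8 and 35.0 normalized CPM (log2 fold change -4.22, standard error 0.26, limma adjusted p = 2.35e-09). FUCA2 (ENSG00000001036, chromosome 6, 143494811 to 143511690), a secreted fucosidase, had 2.15, 0.964, 2.88 and 1.09 against 29.9, 33.6, 29.3 and 37.998 (-3.65, standard error 0.22, limma adjusted p = 1.73e-09). In both genes the controls lay close together, at 29.3 normalized CPM or more, and every KO-labelled library was below 3. C9orf64, an enzyme of queuosine salvage, had 4.68, 2.23, 1.14 and 1.09 against 27.7, 27.5, 27.1 and 27.5 normalized CPM, with KO11 replicate 1 the highest of its group (log2 fold change -3.24). Further large falls were those of IL20RA, a receptor subunit for cytokines of the IL-20 family (-2.85), PRTFDC1, a relative of the purine salvage enzyme HPRT (-2.75), S100A6 (-2.65), the postsynaptic scaffold DLG2 (-2.64), ARPIN, an inhibitor of the Arp2/3 complex (-2.46), and FAR2, a fatty acyl-CoA reductase (-2.44). ARPIN shares its strand with the readthrough gene C15orf38-AP3S2, so its reads may be divided between them. Other than PRTFDC1, which passed the filter through the Scr libraries, each of these genes held its call without any single library.

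Among the rises, ADAMTS19 (ENSG00000145808, chromosome 5, 129460265 to 129738683), a secreted metalloprotease, came first, with 27.4, 24.0, 24.3 and 25.8 normalized CPM against 1.54, 3.92, 4.66 and 0.454 (log2 fold change 3.05, standard error 0.30, limma adjusted p = 1.47e-06). LMO4 (ENSG00000143013, chromosome 1, 87328468 to 87348923), a LIM-only cofactor that bridges transcription factors, had 34.3, 35.3, 27.1 and 26.9 against 2.87, 2.88, 2.64 and 4.60 (2.92, standard error 0.18, limma adjusted p = 2.96e-09). LMO4 was close to uniform within each KO clone and higher in KO11 than in KO28, and Scr16 replicate 2 was the highest control. SERTM2 (2.83), the homeodomain factor POU4F2 of sensory neurons (2.73), SEMA3A (2.59), S100A11 (2.53), the zinc finger factor MECOM (2.50), the adhesion molecule KIRREL1 (2.45) and MGP, an inhibitor of calcification (2.40), followed. MECOM differed between clones, with 9.97 and 10.6 normalized CPM in KO11 and 1.74 and 3.36 in KO28. MSN, which links actin to the membrane and was chosen after its values were seen, rose from 6.77, 9.04, 8.22 and 6.36 to 39.4, 38.6, 38.5 and 48.1 normalized CPM (2.30, standard error 0.15). Of the most abundant genes called, ADAM22, a receptor for the synaptic ligand LGI1, fell from 1013, 1046, 1008 and 919 to 509, 506, 452 and 479.7 normalized CPM (log2 fold change -1.03, limma adjusted p = 3.14e-09). The highest KO-labelled library thus lay far below the lowest control. VGF (0.42) rose and SLIT3 (-0.43) fell by less. PKM, the pyruvate kinase of glycolysis (0.25), and the spectrin SPTBN1 (-0.25) were called with all libraries, but SPTBN1 was not without Scr13 replicate 2 (limma adjusted p = 0.0506), nor was PKM without KO28 replicate 1 (0.0731), KO28 replicate 2 (0.0520), Scr13 replicate 1 (0.0618), Scr13 replicate 2 (0.0891) or Scr16 replicate 1 (0.0505).

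**Figure D2:**
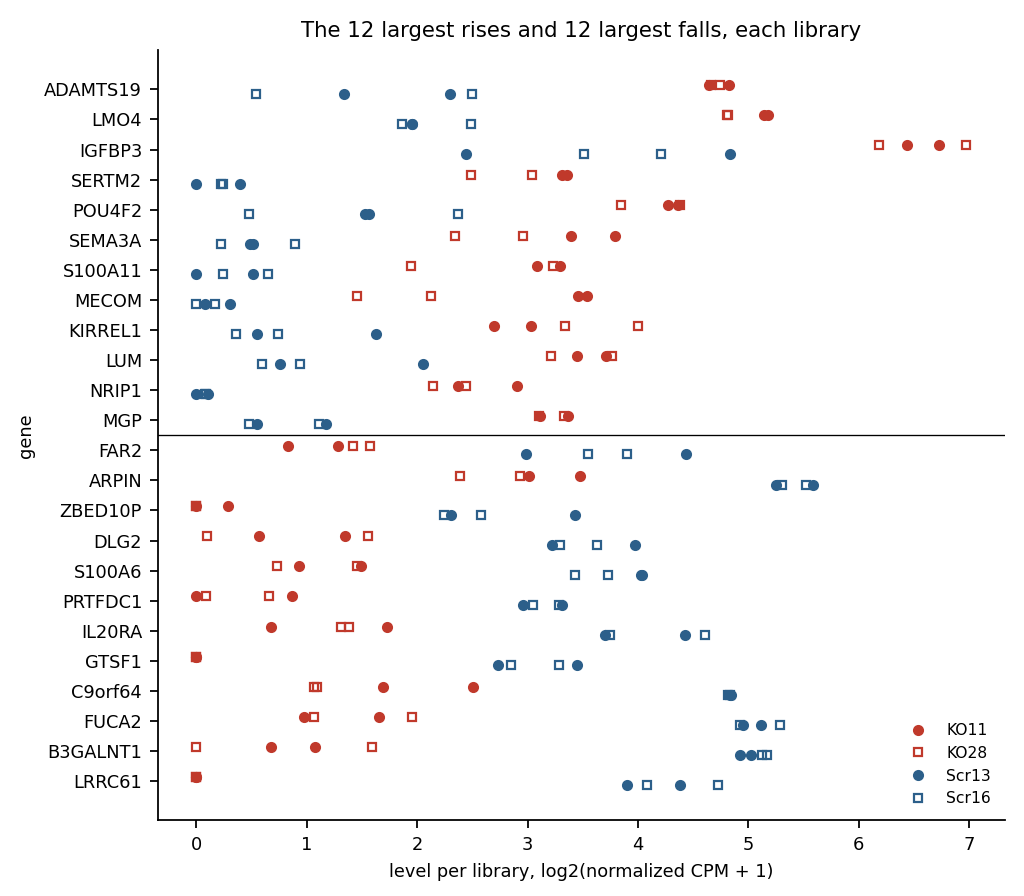
Level of the 12 genes with the largest rises and the 12 with the largest falls (y axis) in each library (x axis, log2(normalized CPM + 1)), with KO-labelled libraries in red, Scr libraries in blue, and filled circles or open squares for the clones. Genes were chosen so that the groups do not overlap, and LRRC61 and GTSF1 stand at 0 in all 4 KO-labelled libraries.

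The sequences before 4 of these genes are shown because LRRC61 and GTSF1 had no reads in the KO-labelled libraries, and because S100A6 and S100A11, members of the same family on chromosome 1, moved in opposite directions. They are the 250 bases before the RefSeq start site (GRCh38.p14), 5′ to 3′ on the gene's strand, with the dinucleotide CG, where DNA can be methylated, in capitals. LRRC61 (chr7:150323105-150323354, + strand) holds 29 CG, GTSF1 (chr12:54473603-54473852, - strand) 8, S100A6 (chr1:153535992-153536241, - strand) 24 and S100A11 (chr1:152037005-152037254, - strand) 15.
LRRC61: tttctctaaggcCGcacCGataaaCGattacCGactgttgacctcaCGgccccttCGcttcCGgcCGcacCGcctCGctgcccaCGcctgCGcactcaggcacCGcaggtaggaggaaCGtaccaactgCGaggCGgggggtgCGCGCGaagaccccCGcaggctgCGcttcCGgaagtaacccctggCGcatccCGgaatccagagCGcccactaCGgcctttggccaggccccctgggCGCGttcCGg
GTSF1: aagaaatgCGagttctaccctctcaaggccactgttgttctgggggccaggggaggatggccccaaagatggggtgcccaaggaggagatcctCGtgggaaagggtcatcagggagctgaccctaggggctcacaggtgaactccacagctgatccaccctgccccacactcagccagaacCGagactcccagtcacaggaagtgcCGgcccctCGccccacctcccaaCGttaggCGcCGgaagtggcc
S100A6: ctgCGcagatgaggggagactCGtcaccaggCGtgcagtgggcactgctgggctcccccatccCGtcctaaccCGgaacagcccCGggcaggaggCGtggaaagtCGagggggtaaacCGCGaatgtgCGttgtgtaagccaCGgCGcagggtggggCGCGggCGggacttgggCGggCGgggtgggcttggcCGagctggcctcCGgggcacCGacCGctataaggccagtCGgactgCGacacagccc
S100A11: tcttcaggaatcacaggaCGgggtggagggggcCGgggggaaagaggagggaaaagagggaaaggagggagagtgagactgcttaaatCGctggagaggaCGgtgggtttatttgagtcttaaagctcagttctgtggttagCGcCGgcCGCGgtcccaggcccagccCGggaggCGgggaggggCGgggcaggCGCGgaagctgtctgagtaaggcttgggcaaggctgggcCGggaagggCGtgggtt
The motif CG reads the same on both strands and was found in 99.4% of the 9871 matched promoters of protein-coding genes tested, out of 12053 such genes. The median promoter held 21. CG-rich promoters, with an observed over expected CG of at least 0.6 and at least 50% GC, made up 79.0% of all of them, 67.6% of the 241 for genes called higher and 63.7% of the 259 for genes called lower. These are letters in a window, and no methylation was measured.

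Among the lists of genes, that of secreted matricellular proteins and proteoglycans held the most rises. Matricellular proteins and proteoglycans form the matrix between cells and tune growth factor access, and collagens give it strength. Of 42 matricellular and proteoglycan genes in the table, 36 were tested, with 11 called higher and 1 lower. Their log2 fold changes had a median of 0.25, beside -0.0073 over all genes tested, and 9 of the 11 rises held without each single library. VCAN (ENSG00000038427, chromosome 5, 83471465 to 83582303), the hyaluronan-binding proteoglycan versican, had 93.5, 74.8, 105 and 78.8 normalized CPM in the KO-labelled libraries and 44.2, 10.5, 22.2 and 23.3 in the Scr libraries. Scr13 replicate 1 was the highest control and still below every KO-labelled library. The log2 fold change was 1.92 (standard error 0.25, limma adjusted p = 3.26e-05). LUM (ENSG00000139329, chromosome 12, 91102629 to 91111831), the collagen-binding proteoglycan lumican, had 12.1, 9.94, 12.6 and 8.24 against 3.15, 0.691, 0.921 and 0.511 (2.45, standard error 0.28, limma adjusted p = 8.71e-06), again with Scr13 replicate 1 the highest control. TNC, the adhesion-modulating tenascin C, had 33.1, 33.1, 37.9 and 45.9 against 24.5, 3.22, 10.99 and 8.29 (1.87). FN1, fibronectin, had 189, 167, 281 and 273 against 160.2, 36.7, 87.3 and 61.3 (1.55). In FN1 the lowest KO-labelled library was only slightly above Scr13 replicate 1. THBS2, a thrombospondin, had 196 reads in the KO-labelled libraries and 1 in the Scr libraries (237-fold, counting interval 42.1 to 9414). NID1, a linker of basement membranes, was the fall (-0.44). Without the controls low in IGF2, 6 members were called higher in place of 11 and 1 lower. Of the 36 members, 2 passed the filter through a single group.

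Of 34 collagen genes, 17 were tested, with 7 called higher and 1 lower. The median log2 fold change was 0.61 over these 17 and 0.11 with no filter on low values. COL11A1 (ENSG00000060718, chromosome 1, 102876467 to 103108872), a fibrillar chain, had 23.7, 18.5, 25.1 and 9.77 normalized CPM against 6.49, 2.82, 2.76 and 6.53 (log2 fold change 1.85, standard error 0.28, limma adjusted p = 0.000190). COL3A1, a fibrillar chain and fibroblast marker, had 194, 126, 215 and 165 against 139, 10.8, 41.1 and 30.3 (2.17). Its groups overlapped, since Scr13 replicate 1 was above KO11 replicate 2. COL1A1 had 14.4, 10.5, 21.9 and 20.7 against 9.80, 1.78, 4.60 and 6.82 (1.52), without overlap. COL4A2 and COL4A1, chains of the type IV collagen of basement membranes, are divergent neighbours on chromosome 13. COL4A2 (ENSG00000134871, chromosome 13, 110305812 to 110513209) had 112, 119, 103 and 119 normalized CPM against 73.3, 53.2, 63.7 and 57.4 (0.87, standard error 0.09, limma adjusted p = 4.78e-06), and COL4A1 53.4, 52.9, 59.3 and 62.1 against 45.1, 17.9, 31.7 and 31.7 (0.90). For both, every KO-labelled library was above every control. Their annotated bodies overlap at the start on opposite strands. The 126 bases between their RefSeq start sites (chr13:110307158-110307283 of GRCh38.p14, + strand) are shown because both genes read away from this stretch, with its 20 CG in capitals.
COL4A1-COL4A2: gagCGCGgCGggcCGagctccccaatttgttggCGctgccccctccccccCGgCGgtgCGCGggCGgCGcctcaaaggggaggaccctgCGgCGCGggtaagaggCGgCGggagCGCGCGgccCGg
COL9A2, a cartilage chain, was the collagen that fell (-1.37). Of the 8 calls, 5 rises and the fall held without each single library, and without the controls low in IGF2 there were 4 rises and no fall.

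Fibroblast markers in a wider list moved with the matrix genes. Of 12 in the table, some of them the collagens and proteoglycans above, 10 were tested. Of these 7 were called higher and none lower, with a median of 1.37 on the log2 scale, and all 7 held without each single library. DCN, among the 7, passed the filter through the KO-labelled libraries. ACTA2, smooth muscle actin, had 27.2, 25.5, 30.9 and 33.0 normalized CPM against 13.6, 6.51, 6.94 and 8.86 (1.64). PDGFRA, a growth factor receptor of mesenchymal cells, had 28.1, 25.5, 24.5 and 24.0 against 14.2, 6.22, 9.14 and 12.7 (1.25), and DCN, the proteoglycan decorin, 2.53, 2.65, 1.14 and 4.16 against 0.472, 0.173, 0.307 and 0.284 (1.40). No KO-labelled library fell among the controls for ACTA2 and PDGFRA, whereas DCN had to differ to be tested. The list summed to 469, 383, 520.3 and 500.02 normalized CPM in the KO-labelled libraries and to 381, 199.8, 261 and 241 in the Scr libraries, so that Scr13 replicate 1 stood at the level of KO11 replicate 2. Without the controls high in IGF2 the count was 7 again, with a median of 1.69, and without those low in IGF2 it was 4, with a median of 0.90. The part of a mesenchymal or fibroblast-like cell fraction in the matrix genes was not tested.

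**Figure D3:**
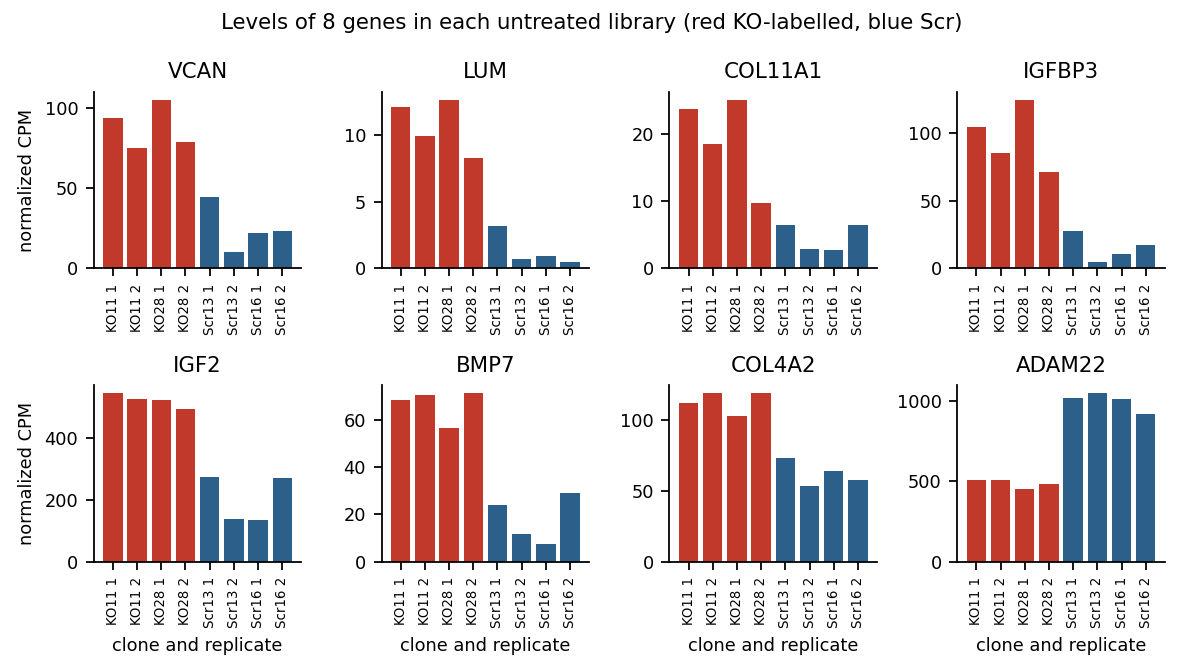
Normalized CPM (y axes, each starting at 0) of 8 genes in each untreated library (x axes, clone and replicate), with KO-labelled libraries in red and Scr libraries in blue. ADAM22 falls from between 919 and 1046 to between 452 and 509 normalized CPM, and the other 7 genes rise. Among controls Scr13 replicate 1 is the highest for VCAN, LUM, IGFBP3, COL4A2 and, closely followed by Scr16 replicate 2, IGF2.

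Matrix proteases and their inhibitors showed both directions. Of 45 genes, 27 were tested, with 7 called higher and 2 lower, and 5 rises and both falls held without each single library. Beside ADAMTS19, the rises included ADAMTS3, a processing enzyme of procollagen (1.19), and SERPINE2, an inhibitor of serine proteases (1.26). ADAMTS9 fell from 548, 497, 486 and 487 to 289.9, 339, 316 and 312 normalized CPM (-0.68, standard error 0.07) and ADAMTS1 from 119.8, 111, 107 and 117 to 85.1, 79.3, 67.5 and 86.6 (-0.52), both proteases that cleave versican. Without the controls low in IGF2 the counts were 2 higher and 3 lower. Of 20 integrin genes tested, which encode receptors for matrix, 2 were called, both lower, ITGA1, a collagen receptor subunit (-0.64), and ITGAV (-0.45). Of 6 laminin chains tested, none was called, with log2 fold changes between -0.48 and 0.30.

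Semaphorins signal through plexins and neuropilins and mostly repel growing axons. Of 31 such genes 27 were tested, with 7 called higher and none lower, and 6 of the 7 held without each single library. SEMA3A (ENSG00000075213, chromosome 7, 83955777 to 84492724), the secreted ligand, had 12.9, 9.52, 4.09 and 6.78 normalized CPM against 0.433, 0.403, 0.859 and 0.170 (log2 fold change 2.59). All controls were below 1, and the gene passed the filter through the KO-labelled libraries. Its receptor NRP1 rose by 0.76, and the receptors PLXNC1 (1.02) and PLXNA2 (0.55) rose too, the latter from 489, 703, 589 and 493 to 761, 783, 929 and 822 normalized CPM. Of 15 ephrin and Eph genes tested, 3 were called, all higher, EPHB4 (1.19), EPHA2 (0.84) and EPHA8 (0.77). EPHA8 was no longer called without KO11 replicate 2, KO28 replicate 1, KO28 replicate 2, Scr13 replicate 2 or Scr16 replicate 1 (limma adjusted p = 0.0642, 0.0722, 0.0994, 0.0947 and 0.120). Without the controls low in IGF2, 1 gene of this list was called. Among slits, netrins and their receptors, 3 of 19 were higher and 1 lower. The netrin receptor UNC5D had 11.5, 6.69, 4.02 and 6.86 against 1.42, 0.173, 0.614 and 1.76 normalized CPM (2.06), the guidance protein DRAXIN rose by 1.09, and the abundant ligand SLIT3 fell. In the tight junction list 3 of 8 genes were lower and none higher, and 2 of these falls, that of MARVELD1 (-0.40) among them, held without each single library. A single fall was called without either pair of controls.

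Protocadherins, which give neurons surface identity, had 7 higher and 2 lower of 44 tested, but only 3 of these calls, all rises, held without each single library. These were PCDH9 (59.9, 58.2, 56.7 and 63.8 against 31.7, 33.0, 33.5 and 28.5 normalized CPM, log2 fold change 0.89), PCDHB10 (1.48) and PCDH10 (1.78). Without the controls low in IGF2 the counts were 5 and 0. PCDHB10 belongs to a cluster of similar genes among which reads can be divided. Of 34 immunoglobulin adhesion genes tested, 7 were higher and 3 lower, and 3 and 1 without the controls low in IGF2. ALCAM rose from 187, 198, 248 and 156 to 350.5, 329.97, 299.9 and 293 normalized CPM (0.71), and CNTN1, contactin 1, fell by 0.76 with overlapping groups (164, 129, 93.5 and 102 against 257, 156, 172 and 245). CADM3 fell by 0.62. Synaptic adhesion genes had 8 higher and 3 lower of 35, of which 5 rises and 1 fall held without each single library. The counts were 6 and 1 without the controls high in IGF2, and 4 and 1 without those low in IGF2. TENM3, a teneurin that matches synaptic partners, rose from 146, 172, 160.4 and 146 to 221, 227, 215 and 215 normalized CPM (0.49), SLITRK6 rose by 1.69, and DLG2 was the fall that held. Of 5 classical cadherins tested, CDH11, a cadherin of mesenchymal cells, rose by 0.92 and held its call, from 27.1, 12.95, 21.2 and 27.0 to 48.4, 37.2, 40.2 and 38.95 normalized CPM.

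Neuronal identity genes were split. Core adrenergic factors, which hold the noradrenergic state, were called in 9 of 20 tested, with 5 higher and 4 lower, and 2 of each held without each single library. Without the controls high in IGF2 there were 3 rises and 1 fall, and without those low in IGF2 2 rises and 3 falls. SATB1, a chromatin organizer, had 274, 309.6, 298 and 323 against 221, 239, 228 and 232 normalized CPM (log2 fold change 0.39, standard error 0.07, limma adjusted p = 0.000919), higher without overlap. Mesenchymal factors and markers had 6 of 16 higher and 1 lower, and 5 rises and the fall held. The median log2 fold change was 0.38, and between 0.19 and 0.48 without a single library. It was 0.51 without the controls high in IGF2 and 0.19 without those low in IGF2. YAP1, the effector of Hippo signalling, had 10.5, 10.9, 7.38 and 6.64 against 3.15, 0.403, 1.53 and 1.99 (1.91). VIM, the intermediate filament of mesenchymal cells, had 368, 322, 429.7 and 355 against 302, 87.3, 146 and 218 (1.10). For VIM, Scr13 replicate 1 was close to KO11 replicate 2. The receptor NOTCH3 rose by 0.56. TWIST1, itself a mesenchymal factor, moved the other way, from 257, 274, 254 and 253 to 166, 189.6, 160.4 and 203 normalized CPM (-0.53, standard error 0.08). Of the 8 neural crest and stem cell genes tested, 2 rose and 2 fell. The factor ZIC1 had 50.0, 53.7, 47.1 and 44.1 against 20.9, 20.4, 17.9 and 19.5 normalized CPM (1.27), and the receptor KIT 12.5, 8.43, 7.04 and 5.98 against 2.52, 0.864, 0.491 and 1.14 (2.1). The filament gene NES (-0.34) and the factor SALL4 (-1.26) were lower.

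The neurofilament genes NEFH, NEFL and NEFM, which encode intermediate filaments that set axon calibre, were among 5 falls in 23 neuronal cytoskeleton genes tested. NEFH (ENSG00000100285, chromosome 22, 29480230 to 29491390) had 25.7, 26.7, 22.0 and 28.4 normalized CPM in the KO-labelled libraries and 58.8, 61.3, 56.6 and 56.2 in the Scr libraries (log2 fold change -1.15, standard error 0.10, limma adjusted p = 4.15e-07). NEFL had 177, 186, 169 and 188 against 261, 259.6, 292 and 235 (-0.54), and NEFM 85.7, 99.4, 90.5 and 99.9 against 146, 129, 135 and 144 (-0.56). PRPH, peripherin, had 0.661, 0.422, 0 and 1.09 against 10.6, 6.05, 2.70 and 7.21 (-2.24). Groups did not overlap in any of these. DCX (ENSG00000077279, chromosome X, 111293779 to 111412429), the microtubule protein of young migrating neurons, rose instead, from 105, 89.01, 136 and 109 to 237, 238, 207 and 169 normalized CPM (0.95, standard error 0.11, limma adjusted p = 1.27e-05). DCX lies on the X chromosome between CAPN6 and SERTM2, which were both higher too, but both passed the filter through the KO-labelled libraries. Of the 23 cytoskeletal genes tested, 3 were higher and 5 lower.

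In catecholamine metabolism, 11 of 12 genes were tested and 3 were called, all lower. GCH1, which makes the cofactor of tyrosine hydroxylase, fell from 73.3, 48.6, 57.6 and 65.3 to 37.0, 36.0, 31.9 and 40.2 normalized CPM (-0.73, standard error 0.12, limma adjusted p = 0.000401). The noradrenaline transporter SLC6A2 (-0.27) was no longer called without KO11 replicate 1, KO11 replicate 2 or Scr16 replicate 2 (limma adjusted p = 0.0578, 0.0547 and 0.0507), and PNMT (-0.97), which makes adrenaline, without KO11 replicate 2, Scr13 replicate 2 or Scr16 replicate 2 (0.0752, 0.0734 and 0.101). Without the controls high in IGF2 a single fall was called. Neuropeptide genes went both ways, with 4 of 15 higher and 3 lower, and 1 and 2 without the controls high in IGF2. CRH, corticotropin-releasing hormone, had 20.9, 14.3, 17.6 and 24.1 against 5.51, 6.85, 5.401 and 2.67 normalized CPM (1.76). NPY, which sympathetic neurons co-release with noradrenaline, had 94.6, 101, 94.1 and 97.6 against 185, 137, 132 and 159 (-0.64), and galanin, GAL, 34.9, 33.2, 41.3 and 41.1 against 52.9, 68.7, 56.3 and 56.7 (-0.63). CRH was thus higher and NPY and GAL lower, with no overlap between groups in any of the 3.

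Genes of synaptic vesicles and exocytosis had 2 higher and 6 lower of 38 tested, and 5 falls and no rise held without each single library. Without the controls high in IGF2, 3 falls and no rise were called. SNAP25, a SNARE that fuses vesicles with the membrane, fell from 224, 209.7, 201 and 206 to 141, 146, 151 and 142 normalized CPM (-0.53, standard error 0.07, limma adjusted p = 2.43e-05), and SV2C (-0.34) and SYT4 (-0.44) fell less. Of 40 potassium channel genes tested, KCNJ3 (0.99) and KCNJ12 (0.99), inward rectifiers, were higher and KCNH1 (-0.81), a voltage-gated channel, lower, a share of 7.50%, and without the controls high in IGF2 a single gene of the 3 was called. None of 15 voltage-gated calcium channel genes was called, with log2 fold changes between -0.70 and 0.29. Glutamate receptor genes had 2 higher and 2 lower of 15, and 1 and 1 without the controls high in IGF2. GRIK3, a kainate receptor subunit, rose from 8.46, 11.9, 11.3 and 5.74 to 26.1, 33.2, 35.9 and 27.9 normalized CPM (1.65), while the NMDA receptor subunit GRIN1 (-0.84) and the metabotropic receptor GRM7 (-0.77) fell. ADRA2A, an inhibitory adrenergic receptor, was the call among 13 monoamine and purine receptor genes, from 2.40, 2.48, 1.96 and 3.63 to 7.27, 11.3, 12.5 and 12.2 normalized CPM (1.70).

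Growth factors and their binding proteins included some of the most abundant changes. IGF2 (ENSG00000167244, chromosome 11, 2129112 to 2149603), insulin-like growth factor 2, had 545, 525, 523 and 494 normalized CPM in the KO-labelled libraries and 273, 139, 133.6 and 270.4 in the Scr libraries. The KO-labelled libraries were close together and above both pairs of controls. The log2 fold change was 1.43 (standard error 0.17, limma adjusted p = 1.16e-05). INS-IGF2 and a second IGF2 entry share its strand, so reads may be divided among them. IGFBP3 (ENSG00000146674, chromosome 7, 45912245 to 45921874), which carries IGFs and limits their action, had 105, 85.5, 125 and 71.7 against 27.5, 4.43, 10.4 and 17.4 (2.83, standard error 0.31, limma adjusted p = 5.63e-06). IGFBP5 went the other way, with 224, 213, 269.8 and 223 against 563, 489, 428 and 499.7 (-1.08, standard error 0.08, limma adjusted p = 5.04e-08). Its neighbour IGFBP2 was higher (0.46) but not called without Scr16 replicate 2 (limma adjusted p = 0.0591). Of 7 IGF binding protein genes tested, these were the 3 called.

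Of 36 genes of other receptor tyrosine kinases and their ligands tested, IGF2 among them, 8 were higher and 6 lower, of which 6 rises and 3 falls held without each single library. There were 7 rises and 3 falls without the controls high in IGF2. NTRK3, the receptor for neurotrophin 3, rose from 9.92, 13.9, 9.57 and 6.93 to 35.4, 34.9, 30.4 and 22.4 normalized CPM (1.53), and the ligand PTN from 24.5, 22.3, 27.2 and 17.8 to 47.1, 48.97, 51.0 and 43.8 (1.04). GFRA2, a coreceptor for neurturin, fell from 39.2, 27.5, 25.1 and 33.9 to 6.56, 5.18, 9.32 and 8.97 (-1.94, standard error 0.18, limma adjusted p = 7.56e-07), and RET, the kinase it signals through, from 401, 433, 363 and 410.1 to 257, 284, 299.9 and 302 (-0.49). Each of these genes separated the groups. Among 44 TGF-beta and BMP pathway genes tested, 5 were higher and 1 lower, and 2 rises held without each single library. The counts were 3 and 2 without the controls low in IGF2. BMP7 (ENSG00000101144, chromosome 20, 57168748 to 57266629), a secreted ligand, had 68.7, 70.5, 56.8 and 71.4 against 23.9, 11.7, 7.43 and 29.2 normalized CPM (2.00, standard error 0.26, limma adjusted p = 3.35e-05), and ID4, an inhibitor of bHLH factors and a BMP target, rose by 1.61. In BMP7 the controls high in IGF2 were again the higher ones.

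Of 13 retinoid genes tested, 3 fell and 1 rose. Retinoic acid, which drives SH-SY5Y cells to differentiate, is made by ALDH1A enzymes and carried to its nuclear receptors by CRABP2 and FABP5. CRABP2 (ENSG00000143320, chromosome 1, 156699606 to 156705816) had 5.18, 6.81, 7.24 and 6.05 normalized CPM against 38.2, 31.0, 25.3 and 35.2 (log2 fold change -2.18, standard error 0.16, limma adjusted p = 3.04e-08). FABP5 had 0.441, 0.301, 0 and 0.365 against 2.48, 5.81, 5.59 and 5.05 (-2.13), and ALDH1A3 5.29, 3.92, 2.82 and 1.31 against 9.60, 8.29, 9.64 and 9.88 (-1.35). All 4 KO-labelled libraries were below all controls for CRABP2 and ALDH1A3. FABP5 passed the filter through the Scr libraries, so it had to differ to be tested. The receptor gene RARA was higher (0.43) but lost its call without KO28 replicate 1, KO28 replicate 2 or Scr13 replicate 1 (limma adjusted p = 0.0929, 0.0522 and 0.0600).

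In the Wnt pathway, 3 of 37 genes tested were higher and 2 lower, and 0 and 3 without the controls low in IGF2. RSPO4, which enhances Wnt signals, fell from 9.72, 6.56, 7.79 and 7.21 to 1.32, 1.63, 0.671 and 2.04 normalized CPM (-1.89), the nuclear effector LEF1 from 39.7, 67.0, 56.5 and 53.6 to 20.4, 26.6, 30.9 and 30.5 (-0.97), and the secreted inhibitor DKK2 rose (1.21). Notch genes had 3 of 23 higher and none lower, namely NOTCH3, the ligand JAG2 (0.72) and the non-canonical ligand DLK1, from 259.5, 261, 220.3 and 332 to 448, 451, 341 and 523 normalized CPM (0.71). All 3 held without each single library. DLK1 and its imprinted neighbour RTL1 (0.52) rose together. Feedback and early response genes of the MAPK pathway had 4 of 27 higher, among them the inhibitor SPRY4 (0.50), the early response factor EGR1 (0.78) and the synaptic gene ARC (0.61). Without the controls low in IGF2 a single MAPK gene was called. None of 11 hedgehog pathway genes tested was called, and their log2 fold changes lay between -0.27 and 0.41.

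TRPM2 itself contributes to calcium handling. Of 25 genes for calcium entry, pumps and exchangers tested, 1 was higher and 2 lower (12%, beside the background of 4.84%), and 1 call held without each single library. This was RYR2 (ENSG00000198626, chromosome 1, 237042205 to 237833988), the release channel of the endoplasmic reticulum, which had 1.598, 2.35, 2.28 and 4.01 normalized CPM against 17.9, 9.38, 9.57 and 17.8 (log2 fold change -2.02, standard error 0.25, limma adjusted p = 2.29e-05). The inositol trisphosphate receptor genes ITPR2 (0.81) and ITPR3 (-0.96) were called in opposite directions, ITPR2 not without KO11 replicate 2 (limma adjusted p = 0.0501) and ITPR3 not without KO11 replicate 1 (0.0674), KO11 replicate 2 (0.0610), KO28 replicate 1 (0.0593), Scr13 replicate 1 (0.0838) or Scr16 replicate 2 (0.0972). The 10 genes of the mitochondrial calcium uniporter complex were all tested and none was called, with log2 fold changes between -0.36 and 0.09. Of 28 S100 and other small calcium-binding protein genes tested, 3 were higher and 2 lower (17.9%). S100A6 (ENSG00000197956, chromosome 1, 153534599 to 153536244) had 1.82, 0.904, 1.74 and 0.656 normalized CPM against 15.4, 15.4, 9.76 and 12.3 (-2.65, standard error 0.24, limma adjusted p = 3.97e-07), and S100A11 (ENSG00000163191, chromosome 1, 152032506 to 152047907) 8.82, 7.47, 8.38 and 2.84 against 0.433, 0, 0.184 and 0.568 (2.53). Groups did not overlap in S100A6. S100A11 and CAPN6, which is also among the 3 rises, passed the filter through the KO-labelled libraries, so both had to differ to be tested. The third rise did not hold without each single library. Of 70 cyclic nucleotide and RGS genes, 1 was higher and 5 lower, 0 and 2 without the controls high in IGF2, and 2 and 3 without those low in IGF2. Among the falls were the G protein subunit GNG2 (-0.68), the regulator RGS11 (-1.57) and the phosphodiesterase PDE6B (-1.30).

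Transcription factor families held scattered calls. Of 10 PAX, EYA, DACH and sine oculis homeobox genes tested, 4 were higher and 2 lower, and 3 rises held without each single library, EYA4 (0.76), SIX3 (0.38) and SIX5 (0.99). Without the controls high in IGF2 the counts were 3 and 0, and without those low in IGF2 1 and 1. Among POU, NKX and related homeodomain genes, POU4F2 (19.6, 18.4, 13.4 and 19.8 against 1.89, 1.96, 4.17 and 0.398 normalized CPM) and POU3F3 (1.63) rose and CUX2 fell from 213, 293, 259 and 232 to 135, 157, 182 and 187 (-0.59). LMO4 was the call among 9 LIM genes. FOXC1 (0.63) and FOXI3 (1.17) were the rises among 20 forkhead genes, neither of which was called without the controls low in IGF2. The forkhead fall, FOXO3, did not hold without each single library. EPAS1, a hypoxia-inducible factor, rose by 0.46, and the nuclear receptor gene RORB by 0.44, and RORB was not called without the controls low in IGF2. The basic helix-loop-helix list, which holds EPAS1, and the nuclear receptor list also held called falls. HOXD10 was the call among 8 HOX genes tested (-1.36), but not without the controls low in IGF2. None of 8 SOX and none of 11 Kruppel-like factor genes was called. Of 478 numbered zinc finger genes, 11 were called (2.30%), 3 higher and 8 lower, below the background of 4.84%, and 1 and 5 without either pair of controls. The largest falls in this family were those of ZNF229 (2.70, 3.61, 1.01 and 3.28 against 16.8, 17.2, 17.2 and 16.4 normalized CPM, -2.36), ZNF662 (-2.17) and ZNF883 (-1.68).

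None of 82 oxidative phosphorylation genes tested was called, with a median log2 fold change of 0.05 and values between -0.55 and 0.50. Of 81 cytosolic ribosomal protein genes, 3 were called (3.70%), all higher, and only RPS27L (0.71), whose expression p53 also drives, held without each single library. It was also the single call without the controls high in IGF2. Mitochondrially encoded genes took 3.87%, 4.84%, 6.41% and 5.27% of the reads of the KO-labelled libraries and 4.89%, 4.58%, 4.19% and 4.67% of those of the Scr libraries. Of 36 glycolysis and hypoxia genes, 5 were higher and 1 lower (16.7%), 2 and 0 without the controls high in IGF2, and 2 and 2 without those low in IGF2. PFKFB3, which raises glycolytic flux, rose from 46.6, 50.8, 54.1 and 45.3 to 96.3, 92.9, 83.0 and 89.3 normalized CPM (0.87, standard error 0.09, limma adjusted p = 1.83e-06). ALDOA rose by 0.32, and the lactate exporter SLC16A3 was lower (-1.37). Of 37 antioxidant genes tested 8.11% were called, of 58 heat shock genes 3.45%, and of 33 ATF4 genes 9.09%, beside the background of 4.84%. Each of these lists held calls in both directions. The calls in them that held without each single library were those of GPX7 (-1.12), the mitochondrial cochaperone DNAJC15 (-1.25) and the mitochondrial folate enzyme ALDH1L2 (-1.79).

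ABC transporters had 4 lower and none higher of 28 tested, and 3 held without each single library. ABCB1 (ENSG00000085563, chromosome 7, 87503633 to 87713323), the drug efflux pump P-glycoprotein, had 195, 180.5, 193 and 203 normalized CPM against 434, 321, 335 and 452 (log2 fold change -0.98, standard error 0.09, limma adjusted p = 8.52e-07), ABCD2, a peroxisomal fatty acid transporter, 31.0, 31.5, 28.0 and 24.9 against 64.4, 52.9, 63.95 and 62.8 (-1.06), and ABCA12, a lipid transporter, fell by 0.53. Groups did not overlap in any of these 3. Solute carriers had 2 higher and 4 lower of 189 tested (3.17%), among them the organic anion transporter SLCO1A2 (-1.50) and the choline transporter-like SLC44A5 (-0.60). Of 19 interferon-stimulated genes tested, 1 was higher and 2 lower, among them PARP14, an ADP-ribosyltransferase that passed the filter through the Scr libraries (0.386, 0.241, 0 and 0 against 2.91, 3.05, 2.52 and 2.95 normalized CPM, -1.75). None of 8 genes of MHC presentation was called. Imprinted genes had 5 higher and 1 lower of 22, and 3 and 1 without the controls high in IGF2. Among them INPP5F, a phosphoinositide phosphatase, fell from 172, 117, 127 and 171 to 69.5, 64.9, 76.0 and 67.7 normalized CPM (-1.05).

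In total, 264 of the 695 genes called belonged to at least 1 of 73 lists, 2 of which had no member that passed the filter. Of the other lists, 39 held calls in both directions, 12 only rises, 9 only falls and 11 none. The plot of list members shows the spread within each list.

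**Figure D4:**
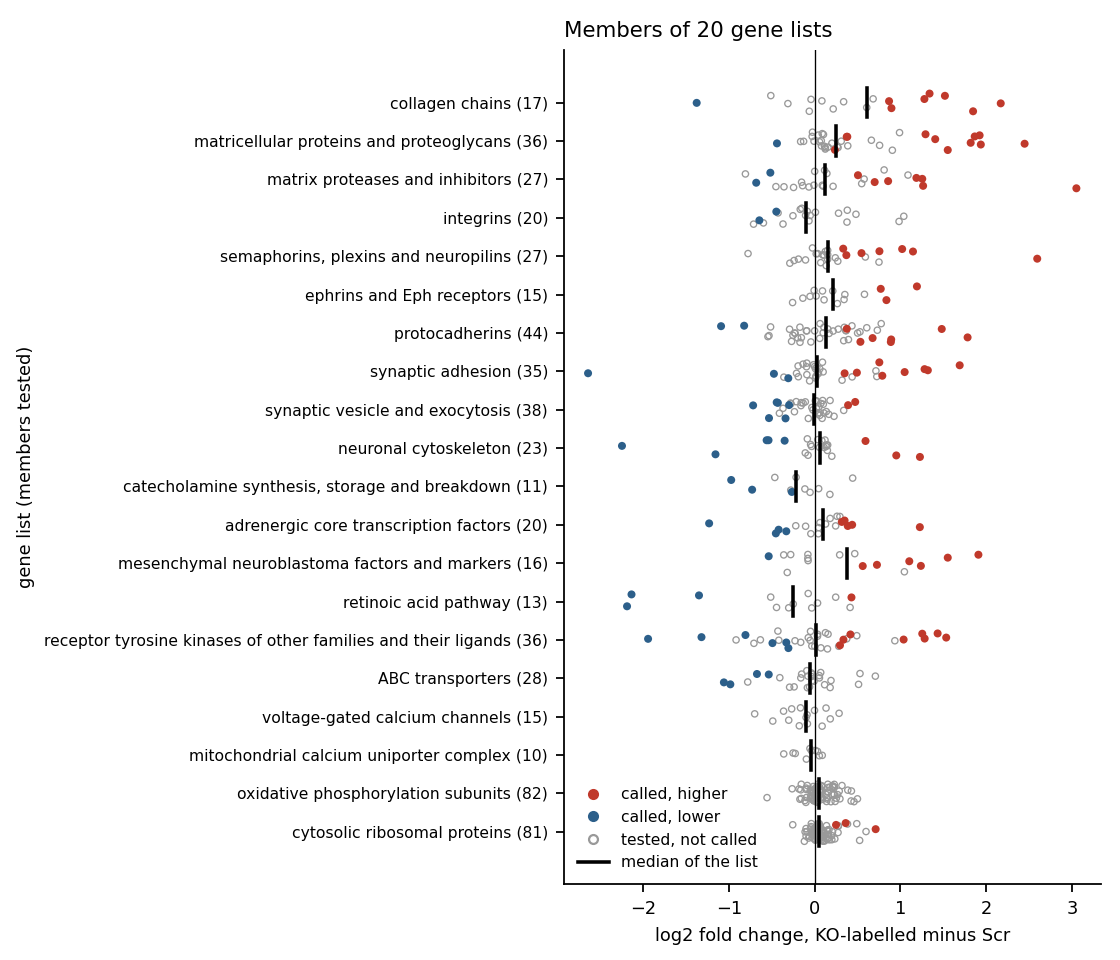
Log2 fold change (x axis, KO-labelled minus Scr) of each tested member of 20 gene lists (y axis, with the number tested), with called rises in red, called falls in blue, other members as open grey circles and the median of each list as a black bar. The median of the 17 collagen chains tested is 0.61 (0.11 with no filter on low values), and oxidative phosphorylation and uniporter genes hold no called member.

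Neighbouring genes sometimes moved together. Among 14093 pairs of genes tested that follow each other on a chromosome, whatever the distance between them, both were called in 81 pairs, in the same direction in 63. How many such pairs the background of 4.84% would give was not tested. Examples were PDGFRA and KIT on chromosome 4, NEFM and NEFL on chromosome 8, and COL4A1 and COL4A2 on chromosome 13. IGFBP2 and IGFBP5 were adjacent among tested genes and moved apart, as did S100A11 and S100A6, of which S100A11 passed the filter through the KO-labelled libraries. The latter pair lies far apart on chromosome 1, since S100A11 ends at 152047907 and S100A6 starts at 153534599. By chromosome, the share called ran from 1.74% on chromosome 16 to 8.16% on chromosome 4, with median log2 fold changes between -0.03 and 0.01. Of the 163 genes described with values, 90 overlap another annotated gene on the opposite strand and 52 on the same strand, and whether strand was used in counting is not given in the sources used here, so reads of overlapping genes cannot be told apart.

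The same clones had also been sequenced after 24 h of doxorubicin, a DNA-damaging drug, at 0.3 µM according to the sample labels. Of 245 genes with at least 2-fold called differences in untreated cells that were tested in the treated libraries, 209 were also called there and 243 had the same sign, in libraries of the same clones. After doxorubicin 1266 of 14572 genes (8.69%) were called. B3GALNT1 had a log2 fold change of -4.22 without and -4.03 with the drug, VCAN 1.92 and 1.93, and ADAM22 -1.03 and -0.93. LUM (2.45 and 3.24), MGP (2.40 and 3.73) and CRABP2 (-2.18 and -3.06) differed more after the drug, and SEMA3A (2.59 and 1.79) and NRIP1 (2.40 and 1.51) less, but none of these shifts passed the interaction test (limma adjusted p of at least 0.156). Over 15325 genes, 3 passed it (0.0196%), between 1 and 4 without a single library, while 1148 had an unadjusted p under 0.05. Of these 3, CXCL12 alone, a chemokine, was among the genes called in untreated cells, with 3.75, 3.31, 4.69 and 2.33 normalized CPM against 0.945, 1.04, 1.78 and 0.568 (log2 fold change 1.12, limma adjusted p = 0.0131). Its difference was larger after doxorubicin by 1.98 (standard error 0.36, limma adjusted p = 0.0341), but it passed in only 4 of 16 fits made without a single library. The untreated call of CXCL12 was lost without KO28 replicate 1 or Scr16 replicate 2 (limma adjusted p = 0.0566 and 0.0553).

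**Figure D5:**
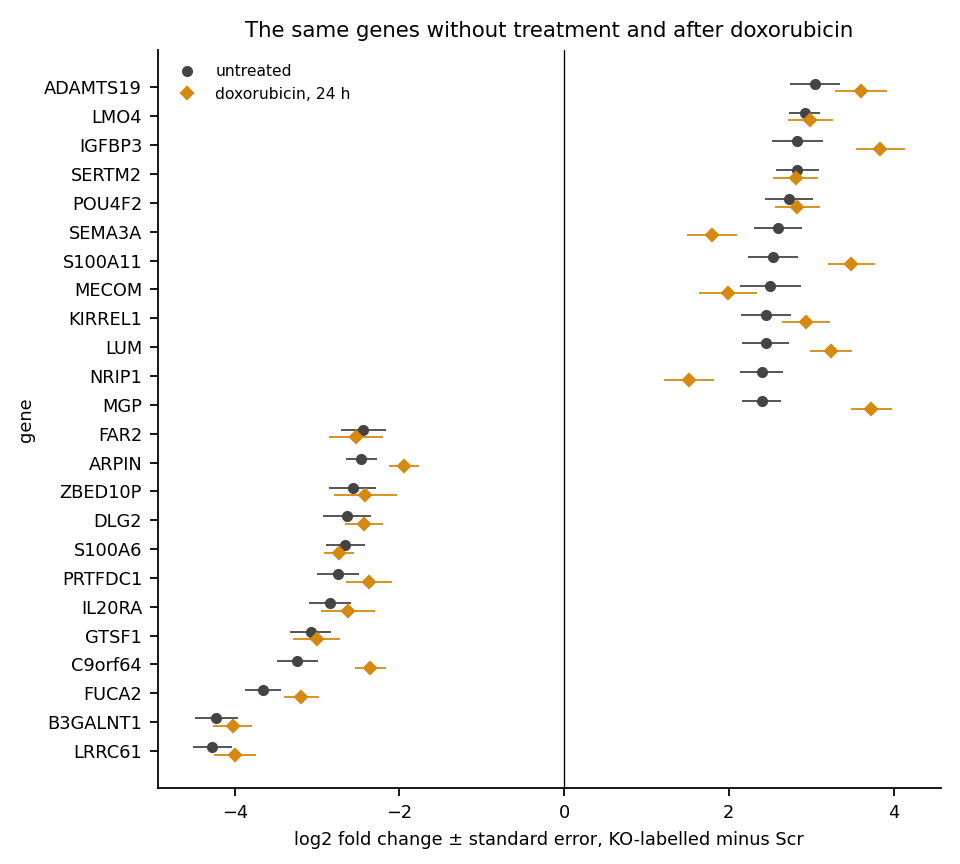
Log2 fold change between KO-labelled and Scr libraries (x axis, with bars of 1 standard error) of the 12 largest rises and the 12 largest falls in untreated cells (y axis), without treatment in black circles and after 24 h of doxorubicin in orange diamonds. All 24 genes keep their direction, and MGP moves from 2.40 to 3.73.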

How the data were processed

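Poly(A) RNA of SH-SY5Y clones had been sequenced. The submitters' processing notes name bcl2fastq, HISAT2 2.1.0, HTSeq, edgeR and GRCh38, and the strand setting of the counting is not given in the sources used here. The deposited signal values are normalized CPM, read counts scaled by the authors with edgeR. All of them came out as whole reads (within 0.001), so that reads could be recovered. Columns of fold changes and p-values from the authors' own comparison were not used. Genes were placed with GENCODE 29 (95.9% of 26410 identifiers).

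Genes that reached 1 normalized CPM in 4 or more of the 8 libraries were tested with limma 3.58.1 (R 4.3.3) on log2(normalized CPM + 1), with an abundance trend and Benjamini-Hochberg adjustment over all genes tested. The interaction with doxorubicin was fitted over 16 libraries. The fits were tested on simulated data. Alternatives were edgeR 4.0.16 and DESeq2 1.42.0 on recovered reads, other pseudocounts, filters and scaling, reads summed per clone, blocks, and left-out libraries, clones and pairs of controls, the pairs chosen after seeing the data.

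Members and lists were chosen with earlier results of these data known. Named by rule were TRPM2, the 12 largest protein-coding rises and falls without overlap, up to 3 called genes per list by smallest p, and the 5 called genes with most reads. Outside this rule, ADAMTS3, AMER2, ANPEP, C14orf39, COL1A1, COL3A1, COL4A1, CXCL12, DCN, FN1, LBX2, MAP10, MSN, NEFM, NID1, NRP1, NTRK3, PNPLA4, PRPH, PRRG1, RET, SALL4, SERPINE2, TNC and VIM were chosen after their values were seen. Some genes are not reported here.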

Additional observations from a re-analysis of the deposited data

Results flagged for a closer look

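The difference between KO-labelled and Scr libraries changed with doxorubicin for 3 genes by the limma interaction test, with Benjamini-Hochberg adjustment. For CXCL12 it was larger after the drug by 1.984 on the log2 scale (limma adjusted p = 0.0341), for TP53I3, a p53 target, by 1.661 (limma adjusted p = 0.000663), and for SLIT1, a guidance ligand, it shifted by -0.7108 (limma adjusted p = 0.0341). Without a single library, 1 to 4 genes passed the test in each of 16 fits. TP53I3 passed in all 16, and CXCL12 and SLIT1 in 4 each. In untreated cells TP53I3 and SLIT1 had log2 fold changes of 0.01 and -0.04.

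In 13 of 319 groups of 4 libraries examined, 1 library stood apart from the other 3 of its group, where chance flags about 1 in 20 groups. Controls that stood apart were Scr13 replicate 1 for ABCA12 (109.6 normalized CPM), LUM (3.149) and THBS2 (0.03936, which is 1 read), Scr13 replicate 2 for ABCD2 (52.91), Scr16 replicate 1 for ITPR2 (5.34), and Scr16 replicate 2 for ANPEP (5.282) and LMO4 (4.601). Among KO-labelled libraries these were KO11 replicate 1 for ZBED10P (0.2204), KO28 replicate 1 for GNG2 (116.1) and GPX7 (12.94), and KO28 replicate 2 for IGFBP2 (216.5), MSN (48.14) and ZNF662 (1.897).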

How the results depend on the processing

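The number of genes called (695, with 330 higher and 365 lower) was 368 (159 and 209) with no filter on low values, 413 (182 and 231) with no abundance trend, 362 (208 and 154) without clone Scr13 and 364 (160 and 204) without clone Scr16. With fewer controls it was 417 (181 lower) without Scr13 replicate 1 and Scr16 replicate 2, and 452 (199 higher) without Scr13 replicate 2 and Scr16 replicate 1, the pairs chosen after seeing the data. Leaving out each replicate in turn gave 538 to 711 genes, with 238 to 327 higher and 262 to 386 lower. Of the 695 genes, 624 were among the 636 that edgeR called on recovered reads, 680 among the 862 of DESeq2 and 508 among the 533 with reads summed per clone. TRPM2 was also called with no filter on low values.

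No pairing by replicate number was used in the main fit. Same-numbered KO-labelled and Scr libraries deviated from the mean of their group with correlations of -0.06 to 0.08. These deviations also hold differences between the clones of a group. A fit with the replicate number as a block called 697 genes, with 335 higher and 362 lower. For the interaction with doxorubicin this block gave 7 genes in place of 3, and leaving out single libraries gave 1 to 4. TRPM2 kept its call in all 24 alternatives run for it. Of 4009 values of the other genes described, over at most 25 alternatives each, 3758 stayed on their side of the threshold, 251 lost the call and 0 reversed. Of all 163 genes described, TRPM2 included, 153 were called without each single library, and 107 in every alternative run for them. With no filter on low values 40 of them lost the call, with no abundance trend 33, and without clone Scr13 29.

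Limits are depth, at which a level under 0.118 to 0.219 normalized CPM cannot be told from 0, 2 clones per group, and gene counts that do not show which exons of TRPM2 were read.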
